A study of Mus musculus with 8 samples.

Results

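Cytosolic ribosomal protein genes are described here by the CpG methylation around their ends in mouse leukaemic progenitors, measured by reduced representation bisulfite sequencing (RRBS). RRBS cuts genomic DNA at CCGG sites, so that CpG-rich fragments are read, and bisulfite treatment lets methylated and unmethylated cytosines be counted. The genes were chosen by symbol: protein-coding autosomal genes named Rpl or Rps and a number, with the optional letters A, L1, X or P, and without the Rps6k kinases, Rpl10l and pseudogenes. There were 73 such genes among 21631 protein-coding genes. A gene end was a window from 1000 bp outside to 500 bp inside the first or last base of a gene, and it was kept where at least 3 CpG positions were listed and every library had at least 20 reads. The reads of a window are summed over its positions, so a read that covers several CpGs is counted at each. This kept 63 of 146 ends, of 61 genes, among 11409 ends of 10688 genes over the whole table. By subunit, 40 kept ends belonged to large-subunit genes and 23 to small-subunit genes.

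The libraries came from I1DN cells of the cKit+/Cd11b- progenitor phenotype, taken from mice that had been transplanted with these leukaemic cells. All 4 groups carried the same leukaemia, received 5 days of treatment and had 2 libraries each: AG120 with AZA, AG120 alone, AZA alone, and Vehicle. AG120 is ivosidenib, an inhibitor of mutant IDH1, whose product 2-hydroxyglutarate inhibits the TET enzymes that begin DNA demethylation, and AZA is azacitidine, a DNA methyltransferase inhibitor. The design asks what the combined treatment does to DNA methylation. The labels do not say what I1DN stands for, or whether the 2 libraries of a group came from separate or pooled animals, so p-values measure the spread between these libraries only.

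Ribosomal protein genes encode the protein parts of the large and small ribosomal subunits, and every dividing cell transcribes them at a high rate. Their promoters are typical housekeeping promoters: rich in CpG, often without a TATA box, and as a rule free of DNA methylation. Transcription of many of them starts at a cytosine followed by a run of pyrimidines, the 5′-terminal oligopyrimidine tract through which mTOR signalling controls translation of these mRNAs. In people, loss of a single copy of several of these genes causes Diamond-Blackfan anaemia.

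Promoter sequences from RefSeq (build GRCm38.p6, whose coordinates are those of mm10), 250 bases before and 50 after the annotated start, were matched for 53 of the 73 genes. The 4 shown are those with the highest (Rpl35, Rps15a) and lowest (Rps25, Rpl9) mean methylation around the gene end, among the named genes whose listed start was the gene's 5′ end. They lie at chr2:39005082-39005381 (minus strand) for Rpl35, chr7:118116098-118116397 (minus strand) for Rps15a, chr9:44407464-44407763 (plus strand) for Rps25 and chr5:65391382-65391681 (minus strand) for Rpl9. Capitals mark the CpGs with a read in at least 1 library, and the sequences run 5′ to 3′ on the strand of the gene.
Rpl35: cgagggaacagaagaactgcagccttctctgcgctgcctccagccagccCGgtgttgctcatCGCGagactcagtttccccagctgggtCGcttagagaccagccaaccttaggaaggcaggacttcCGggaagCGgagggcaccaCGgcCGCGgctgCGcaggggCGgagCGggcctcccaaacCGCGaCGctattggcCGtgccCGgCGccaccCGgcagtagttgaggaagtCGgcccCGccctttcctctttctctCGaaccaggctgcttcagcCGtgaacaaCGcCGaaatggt
Rps15a: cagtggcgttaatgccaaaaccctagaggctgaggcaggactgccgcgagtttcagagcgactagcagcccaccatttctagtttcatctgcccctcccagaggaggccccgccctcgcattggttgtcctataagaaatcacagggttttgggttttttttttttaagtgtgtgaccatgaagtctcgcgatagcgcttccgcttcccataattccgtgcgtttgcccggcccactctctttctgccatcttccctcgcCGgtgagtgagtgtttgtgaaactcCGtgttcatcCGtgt
Rps25: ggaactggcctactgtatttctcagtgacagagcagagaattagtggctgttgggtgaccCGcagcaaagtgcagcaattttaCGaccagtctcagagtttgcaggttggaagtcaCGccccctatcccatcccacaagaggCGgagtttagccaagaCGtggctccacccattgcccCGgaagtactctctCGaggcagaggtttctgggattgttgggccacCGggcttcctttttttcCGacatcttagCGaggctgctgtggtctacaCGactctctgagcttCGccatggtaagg
Rpl9: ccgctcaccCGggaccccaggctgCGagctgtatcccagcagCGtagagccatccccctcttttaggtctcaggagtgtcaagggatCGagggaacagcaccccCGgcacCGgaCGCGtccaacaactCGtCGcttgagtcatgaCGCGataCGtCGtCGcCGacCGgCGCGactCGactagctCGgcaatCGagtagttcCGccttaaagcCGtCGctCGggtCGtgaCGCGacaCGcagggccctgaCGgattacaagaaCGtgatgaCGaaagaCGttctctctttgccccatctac
The Rpl35 promoter held 27 CpGs, of which 25 were read, and the Rpl9 promoter 35, of which 34 were read. In Rps25 all 12 CpGs were read, and in Rps15a 3 of 17. The ranking is by the whole gene-end window and does not hold for the promoters alone. The Rps15a promoter had no methylated read in any library that read it. That of Rps25 read 22.3 and 5.01% in Vehicle replicates 1 and 2 and at most 0.379% in the other groups. The Rps25 promoter had 601 and 1377 reads in Vehicle, 4 and 90 in AG120 + AZA, 186 and 140 in AG120 and 264 and 850 in AZA. A level of 0 in 4 reads shows little. CCGGAAG, the core of sites bound by ETS-family factors, was found on either strand in Rpl35 and Rps25, and AAGATGGC, the core of YY1 sites, in Rps15a.

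Over all matched promoters, CpG and several motifs were more frequent than over the promoters of the genome. The median promoter of a ribosomal protein gene held 22 CpGs in its 300 bases (lowest 8, highest 35), against 13 over 17492 protein-coding promoters. CCGG, the cut site of the assay, was present in 96.2% of them and in 61.8% of all promoters. CCGGAAG, which contains CCGG, was found on either strand in 20 of 53 (37.7%), against 11.9% of all promoters, and AAGATGGC in 6 of 53 (11.3%), against 3.21%. A TATAAA box was found in 9.43% and in 13.3%, and the E-box CACGTG in 9.43% and in 7.91%. A cytosine at the annotated start followed by at least 4 pyrimidines was present in 12 of 53 (22.6%), among them Rpl35 and Rps15a, against 2.17% of all promoters. These matches describe letters in the window and say nothing of whether a factor binds.

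The promoters with enough reads in every library had low mean levels over the 8 libraries. The 1 promoter of Rpl22 examined, read in fewer libraries, was fully methylated. Of the 53, 25 had at least 20 reads in every library, and all 25 had a mean level under 5% over the 8 libraries, with a median of 1.07%. The level is the percentage of reads that called a CpG cytosine methylated. The other 28 promoters had fewer reads in at least 1 library: 3 had no read at all, 9 had reads but no methylated one, and 17 of those read stayed at or under 5% in every library. The rest, Rpl22 among them, exceeded 5% in at least 1 library. Rpl24 read 71.4% in AZA replicate 2 (21 reads), and Rpl23 31.5% in AG120 + AZA replicate 2 and 15.8% in AG120 replicate 1. Rpl27 read 28.9% in AZA replicate 1, Rps25 22.3% in Vehicle replicate 1 and Rpl11 12.2% in Vehicle replicate 2. Rps3 and Rpl34 read 7.14 and 6.57% in AZA replicate 2. Rpl22, a large-subunit gene, has 2 listed promoters, and only the one nearest the gene end was examined. At this promoter (chr4:152324186-152324485, plus strand, 8 CpGs, 7 listed positions), every read was methylated. It had 0 and 1044 reads in AG120 + AZA, 0 and 2 in AG120, 220 and 92 in AZA and 12 and 192 in Vehicle, each 100% methylated where read. Rpl22 had no kept end, and enters none of the counts and tests over gene ends. Between 12 and 20 of the 25 deeply read promoters had no methylated read in a given library. Single libraries of these 25 also exceeded 10%, as at Rps10 (16.1%) and Rps7 (10.2%) in AG120 replicate 1. Rpl5 read 14.0% in AG120 + AZA replicate 2, and Rplp2 11.1% in AG120 + AZA replicate 1 (27 reads). Levels between 5 and 10% were seen too, as at Rpl7l1 with 9.27% in AZA replicate 2. The highest mean, 3.96%, was that of Rpl35, whose promoter read 0.0436 and 24% in the AG120 + AZA libraries, 0 and 0% in AG120, 0 and 0.813% in AZA and 3.29 and 3.55% in Vehicle. In this and all following lists the 2 values are replicates 1 and 2. The high value at Rpl35 was that of 1 AG120 + AZA library, and the other library of that group was among the lowest.

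The kept ends were 45 5′ ends, 3 3′ ends (of Rps15, Rps18 and Rpl41) and 15 ends of genes whose strand was not used here, and Rps15 and Rps18 had both ends kept. Of the 83 ends left out, 49 had no listed position. The genes with no kept end, 12 in number, were Rpl3, Rpl17, Rpl22, Rpl23a, Rpl29, Rps2, Rps9, Rps16, Rps24, Rps27, Rps28 and Rps29. Rps3 was kept with 25 reads in its least-read library and Rpl19 with 59, while an end of Rps27a with 16 reads and the 5′ end of Rps9 with 14 were left out. A kept end held a median of 102 positions, of which a median of 5 were read in all 8 libraries. Another protein-coding gene overlapped the window of 16 ends, as Trappc4 does at Rps25 and Lias at Rpl9. Libraries held 90373925 to 130796962 calls in all, and each of the 4 libraries with AG120 held fewer than any of the 4 without. Methylation cannot name a cell type. Of the progenitor and myeloid genes, 3 of 5 had a kept end (Kit, Cd34 and Flt3, with means of 6.16, 1.94 and 1.59%), and of 8 genes of lymphoid, erythroid, endothelial and stromal cells 0 had one.

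Low methylation was the rule at the ends of ribosomal protein genes, with a median under that of all gene ends. The median over the 63 ends of the mean level in the 8 libraries was 1.32%, against 2.12% over all 11409 ends and 1.85% over all 8141 5′ ends. A mean under 5% was seen at 56 of 63 ends (88.9%), against 66.5% of all ends and 72.3% of all 5′ ends. Of the 63 ends, 62 had a mean under 20%, against 80.8% of all ends, and 50 stayed under 10% in every library. At least 1 library exceeded 10% at 13 ends (20.6%), against 43.7% of all ends. Rpl6, whose protein belongs to the large subunit, had 0 methylated reads in every library, where 80 to 4536 reads allow levels of up to 0.0661% in the deepest and 3.75% in the shallowest. Rps21 had methylated reads in 1 library only, AG120 + AZA replicate 2, at 0.211%. The limit given for a level of 0 is 3 counts of the total, which covers counting error only. Reads copied by PCR, and reads counted at several CpGs, are not independent molecules, so the true limit may be higher.

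**Figure D1:**
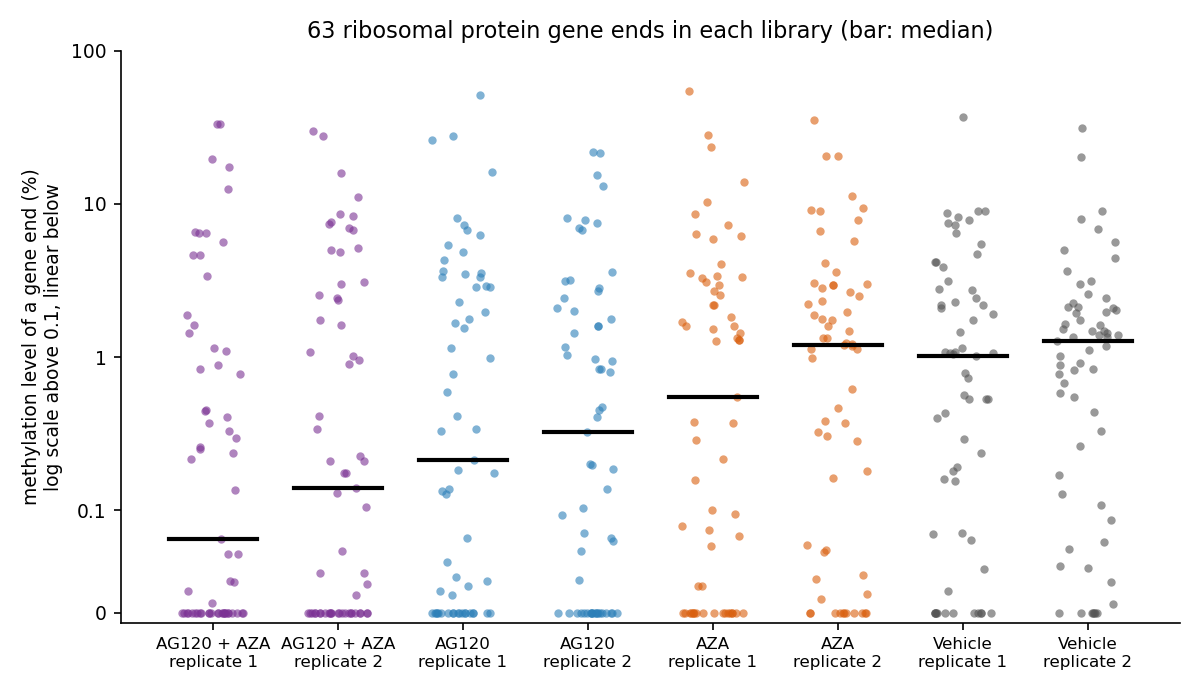
Methylation level (%, log scale above 0.1) of each of the 63 ribosomal protein gene ends in each of the 8 libraries, with the median of each library as a bar. Medians lie between 0.0717% in AG120 + AZA replicate 1 and 1.28% in Vehicle replicate 2, and points at 0 are ends without a methylated read.

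The median end was lowest in the AG120 + AZA libraries, and so was the median of all gene ends, but the means were not. It was 0.0717 and 0.14% in AG120 + AZA, 0.213 and 0.326% in AG120, 0.549 and 1.21% in AZA and 1.01 and 1.28% in Vehicle, or 0.106% ± 0.0485, 0.269% ± 0.0798, 0.878% ± 0.466 and 1.15% ± 0.189 (SD, n = 2 each). The same medians over all gene ends were 0.732% ± 0.173, 1.44% ± 0.358, 1.78% ± 0.149 and 2.05% ± 0.0183. The mean over the ribosomal protein ends did not follow this order: it was 2.67% ± 0.00929 in AG120 + AZA, 2.8% ± 0.659 in AG120, 3.24% ± 0.27 in AZA and 2.46% ± 0.148 in Vehicle. Nor did the mean over all gene ends. That mean was 14.5% ± 0.317 in AG120 + AZA, 14.1% ± 0.832 in AG120, 13.0% ± 0.534 in AZA and 13.3% ± 0.197 in Vehicle. Of all calls, 50.5 and 48.0% were methylated in AG120 + AZA, 41.5 and 49.9% in AG120, 39.2 and 36.9% in AZA and 34.1 and 32.6% in Vehicle. The libraries with low medians were those with more ends at 0 and with fewer reads. In AG120 + AZA 25 and 24 of the 63 ends had no methylated read, in AG120 19 and 20, in AZA 18 and 11, and in Vehicle 12 and 7. Median reads per end were 1918 and 1882 in AG120 + AZA, 2269 and 2175 in AG120, 3438 and 3802 in AZA and 4216 and 4867 in Vehicle. Over all gene ends the share without a methylated read was 31.5% ± 1.25 in AG120 + AZA, 23.7% ± 0.868 in AG120, 15.8% ± 1.75 in AZA and 11.2% ± 1.35 in Vehicle. The part of depth in the lower medians was not tested.

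**Figure D2:**
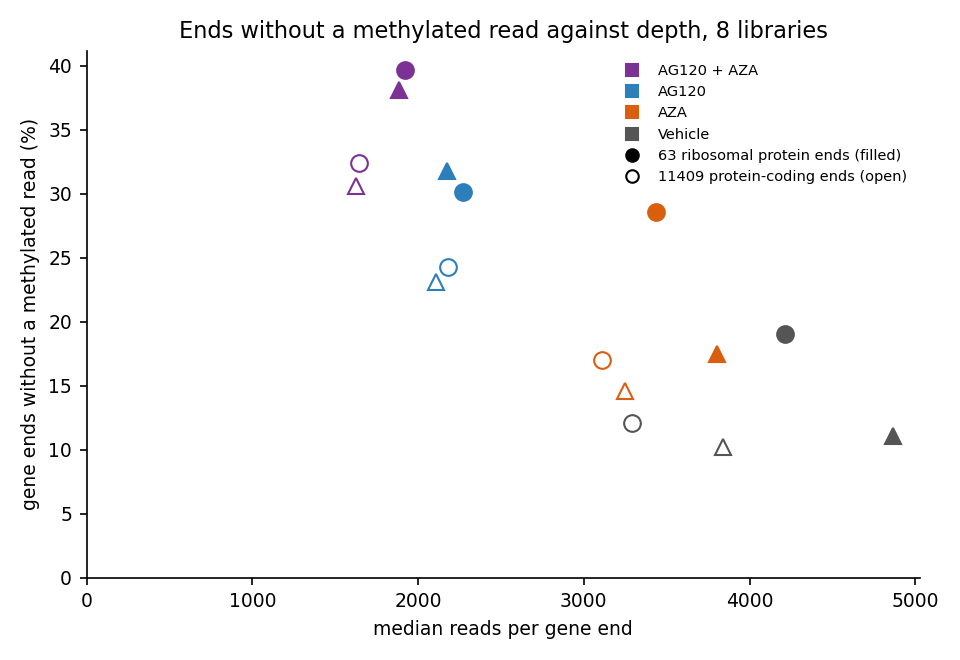
Percentage of gene ends without a methylated read against the median reads per end, for the 63 ribosomal protein ends (filled) and all 11409 ends (open) in each library (circle, replicate 1; triangle, replicate 2). The AG120 + AZA libraries have the fewest reads and the most ends without a methylated read (39.7 and 38.1% of ribosomal protein ends), and the Vehicle libraries the fewest such ends (19 and 11.1%) at the highest depth, with AZA replicate 2 at 17.5%.

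At 5′ ends, methylation was low around the start and inside the gene, and the averages of the outer stretches were higher. Within 250 bp inside the 5′ end of ribosomal protein genes, CpG positions with at least 5 reads averaged 0.578 to 1.24% in the 8 libraries, against 4.75 to 6.63% over all 5′ ends. In the 250 bp outside, the averages were 0.807 to 2.75% and 4.35 to 6.09%. Farther in, up to 500 bp inside, they were 0.548 to 1.73%, against 5.39 to 7.67%, and from 250 to 500 bp outside 1.01 to 6.76%, against 5.43 to 8.14%. From 250 to 500 bp outside, single libraries of the ribosomal protein 5′ ends reached the range of all 5′ ends. From 500 to 1000 bp outside, the averages were 3.95 to 14.0%, against 10.1 to 14.2%, and the ranges overlapped. By group, this outermost stretch averaged 5.61% ± 2.33 in AG120 + AZA, 8.88% ± 1.85 in AG120, 11.8% ± 3.1 in AZA and 4.6% ± 0.919 in Vehicle (SD, n = 2 each). Over all 5′ ends it averaged 14.1% ± 0.172, 12.8% ± 1.29, 10.5% ± 0.593 and 10.3% ± 0.126 in the same order. At ribosomal protein 5′ ends this stretch held 286 listed positions from 19 ends, against 1748 positions from 42 ends in the first 250 bp inside. Between 61 (AG120 + AZA replicate 1) and 138 (AZA replicate 2) of the 286 had at least 5 reads, so libraries were averaged over different CpGs.

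**Figure D3:**
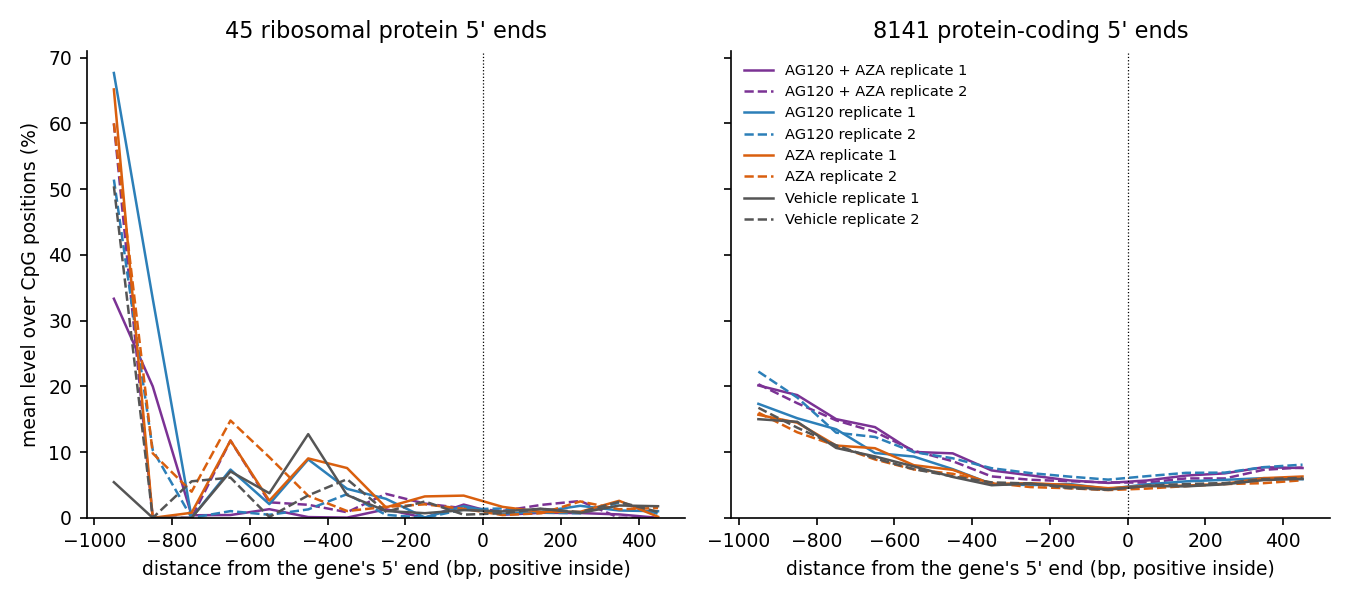
Mean methylation (%) of CpG positions with at least 5 reads in bins of 100 bp around the 5′ end, per library (solid, replicate 1; dashed, replicate 2), for 45 ribosomal protein and 8141 protein-coding 5′ ends. Ribosomal protein ends are low on both sides of the start, and their outermost bin, with 2 to 10 positions per library, ranges from 5.42 to 67.7%.

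AG120 + AZA was compared with Vehicle to ask what the combination did. No ribosomal protein end passed the test. Of 62 tested ends (Rpl6 had no methylated read to test) 0 passed the adjusted threshold of 0.05 in edgeR's quasi-likelihood test (0% of all 11369 ends tested), 0 in limma (0%) and 0 in edgeR's likelihood ratio test (0.598%), with Benjamini-Hochberg adjustment. At an unadjusted quasi-likelihood p under 0.05 there were 3 ends, 4.84% of the 62, against 4.83% of all ends, with 3 in limma (5.88%) and 8 in the likelihood ratio test (14.5%). The mean level was lower at 43 ends and higher at 18, and the median difference was −0.616 percentage points, against −0.197 over all ends, of which 55.5% were lower. The mean difference had the other sign, 0.206 points, against 1.17 points over all ends. Both AG120 + AZA libraries lay under both Vehicle libraries at 18 ends (26.1% of all ends did so) and above them at 3 (11.2%). The median difference shrank to −0.25 points without Vehicle replicate 1 and to −0.186 points without Vehicle replicate 2.

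The ends with the smallest p in that comparison belonged to Rps7, Rps15 and Rpl37a, and each was near 0 in both AG120 + AZA libraries. Rps7, a small-subunit protein whose gene is mutated in some patients with Diamond-Blackfan anaemia, has its 5′ window at chr12:28635453-28636953. It stood at 0.0212 and 0.0385% in AG120 + AZA, 5.44 and 0.0698% in AG120, 7.34 and 2.95% in AZA and 2.79 and 1.96% in Vehicle. The AG120 + AZA libraries lay below every other library, 1 AG120 library lay close to them, and the difference from Vehicle was −2.35 points (edgeR quasi-likelihood test, adjusted p = 0.981). The 5′ end of Rps15 (chr10:80291431-80292931), a protein of the small subunit, had 0 of 1673 and 0 of 2296 reads methylated in AG120 + AZA, which allows up to 0.179 and 0.131%. It read 4.33 and 0.405% in AG120, 0.0653 and 0.0131% in AZA and 0.533 and 1.18% in Vehicle. All 4 libraries with AZA were thus under all 4 without it, and the difference of AG120 + AZA from Vehicle was −0.854 points (adjusted p = 0.981). Rpl37a (chr1:72710260-72711760), of the large subunit, had 0 methylated reads in both AG120 + AZA libraries (up to 0.0771 and 0.137%) and read 8.05 and 0% in AG120, 4.04 and 0.182% in AZA and 4.16 and 1.75% in Vehicle. Here the AG120 and AZA libraries were split between high and near 0, and the difference of AG120 + AZA from Vehicle was −2.95 points (adjusted p = 0.981).

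AG120 and AZA alone were each compared with Vehicle, and the 3 comparisons with Vehicle share the same 2 Vehicle libraries. In AG120 against Vehicle 0 of 62 ends passed the adjusted quasi-likelihood threshold, 0 in limma and 0 in the likelihood ratio test (0% of all ends in each). Unadjusted p was under 0.05 at 1 end (3.14% of all ends), at 1 in limma (4.71%) and at 3 in the likelihood ratio test (10.4%). The median difference was 0.102 points, against −0.0969 over all ends, with 32 ends higher and 29 lower, though the median level of the list was lower in AG120. It became −0.518 points without AG120 replicate 1 and −0.365 points without AG120 replicate 2, and it was 0.0472 points without Vehicle replicate 1 and 0 without Vehicle replicate 2. Both AG120 libraries were under both Vehicle libraries at 15 ends (20.9% of all ends) and above them at 3 (12.1%). In AZA against Vehicle 0 ends passed in each of the 3 tests (0% of all ends in each), and 2 had an unadjusted p under 0.05 in the quasi-likelihood test (2.22% of all ends), 2 in limma (4.42%) and 6 in the likelihood ratio test (7.67%). The median difference was 0.269 points, against −0.139 over all ends. It was 0.149 points without AZA replicate 1, −0.223 points without AZA replicate 2 and 0.583 points without Vehicle replicate 2. Both AZA libraries were under Vehicle at 7 ends (19.4% of all ends) and above at 8 (12.8%).

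Rps25 and Rps23 had the smallest p against Vehicle in the single treatments. Rps25 (chr9:44406714-44408214), a small-subunit protein that some viral mRNAs need for translation, stood at 0.45 and 0.14% in AG120 + AZA, 0.339 and 0.973% in AG120, 0.0263 and 0.0326% in AZA and 1.75 and 1.35% in Vehicle. Both Vehicle libraries were above all others, and the difference of AZA from Vehicle was −1.52 points (edgeR quasi-likelihood test, adjusted p = 1). In Vehicle replicate 1, 40.3% of the methylated reads of this window came from a position 72 bp outside the start, inside the promoter shown above. Rps23 (chr13:90922122-90923622), a protein of the decoding centre, read 0 and 4.84% in AG120 + AZA, 0 and 0% in AG120, 0 and 0% in AZA and 8.69 and 2.26% in Vehicle. All AG120 and AZA libraries were at 0 (with limits of 0.113 to 0.425%), and 1 AG120 + AZA library was not. AG120 and AZA each differed from Vehicle by −5.47 points (adjusted p = 1 for each). Vehicle replicate 1 owed 99.1% of its methylated reads to a position 67 bp inside the gene, where 110 of 132 reads were methylated (83.3%, 95% Wilson interval 76.1 to 88.7) and the 4 other libraries with at least 10 reads had 0. Rpl9, of the large subunit, was among the 3 smallest p in AG120 against Vehicle, with 0 and 0% in AG120 and 0.786 and 1.4% in Vehicle, at an adjusted p of 1.

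The combination was also compared with each drug alone. In AG120 + AZA against AZA, 0 of 62 ends passed in the quasi-likelihood test and 0 in limma (0% of all ends in each), while the likelihood ratio test called 1, Rpl7 (adjusted p = 0.0466), against 0.572% of all ends. Unadjusted quasi-likelihood p was under 0.05 at 4 ends, against 4.63% of all ends, with 5 in limma (6.82%) and 11 in the likelihood ratio test (13.2%). The median difference was −0.745 points, against −0.0343 over all ends. It was −0.377 points without AZA replicate 1 and 0.0108 points without AZA replicate 2. AG120 + AZA was under both AZA libraries at 19 ends (21% of all ends) and above them at 3 (12.6%). Large-subunit ends were lower at 32 of 39, with a median difference of −1.2 points, and small-subunit ends at 10 of 23, with a median difference of 0.015 points. Of all ends, 52.0% were lower. In AG120 + AZA against AG120, 0 ends passed in the quasi-likelihood test and 0 in limma (0% in each), and the likelihood ratio test called 1, Rpl28 (adjusted p = 0.0333), against 1.33% of all ends. Unadjusted quasi-likelihood p was under 0.05 at 2 ends, against 4.32% of all ends, with 2 in limma (6.39%) and 6 in the likelihood ratio test (11.4%). The median difference was −0.0585 points, against −0.0208 over all ends. It was −0.261 points without AG120 + AZA replicate 1, −0.267 points without AG120 + AZA replicate 2, 0.00963 points without AG120 replicate 1 and 0 without AG120 replicate 2. The groups did not overlap at 10 ends lower (17.2% of all ends) and 3 higher (12.1%). No test of the difference between the subunits was made.

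Rpl7 (window chr1:16103933-16105433) and Rpl28 (chr7:4791965-4793465) are large-subunit genes, and both had 0 methylated reads in the combination. Rpl7 allowed up to 0.0504 and 0.0891% in AG120 + AZA, and read 0.129 and 0.0734% in AG120, 3.4 and 1.21% in AZA and 3.14 and 0.0433% in Vehicle. All 4 libraries with AG120 were low, but 1 Vehicle library was lower than both AG120 libraries. AG120 + AZA differed from AZA by −2.31 points (edgeR quasi-likelihood test, adjusted p = 1). In AZA replicate 1, 99.6% of the methylated reads of Rpl7 lay over 500 bp outside the gene. Rpl28 allowed up to 0.0739 and 0.0526% in AG120 + AZA, and read 2.87 and 3.14% in AG120, 1.53 and 0.0368% in AZA and 0.0211 and 0.84% in Vehicle. Both AG120 libraries were above all others, and AG120 + AZA differed from AG120 by −3.01 points (edgeR quasi-likelihood test, adjusted p = 1). All methylated reads of AG120 replicate 2 came from a position 395 bp inside the gene, with 102 of 182 reads methylated (56%, 95% Wilson interval 48.8 to 63.1), and the 5 other libraries with at least 10 reads there had 0.

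Rpl13a and Rpl10a were the other named ends of these comparisons, and they stood on opposite sides of the other groups. Rpl13a (chr7:45128245-45129745), a large-subunit protein that in human cells also represses translation of some inflammatory mRNAs, read 19.6 and 7.36% in AG120 + AZA, 1.68 and 0% in AG120, 0 and 0% in AZA and 0.0775 and 1.11% in Vehicle. Both AG120 + AZA libraries were above all others, and the difference from AZA was 13.5 points (edgeR quasi-likelihood test, adjusted p = 1). The 19.6% rested on 5 positions with 245 reads, and all 48 methylated reads came from a position 280 bp outside the gene, read 49 times there (98%, 95% Wilson interval 89.3 to 99.6) and at most 6.82% methylated in the 7 other libraries. Rpl10a (chr17:28327471-28328971) read 0.235 and 0.0387% in AG120 + AZA, 1.97 and 3.2% in AG120, 2.2 and 5.71% in AZA and 2.74 and 0.0903% in Vehicle. Its AG120 + AZA libraries lay under both single treatments but not clear of Vehicle, and the difference from AZA was −3.82 points (adjusted p = 1).

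**Figure D4:**
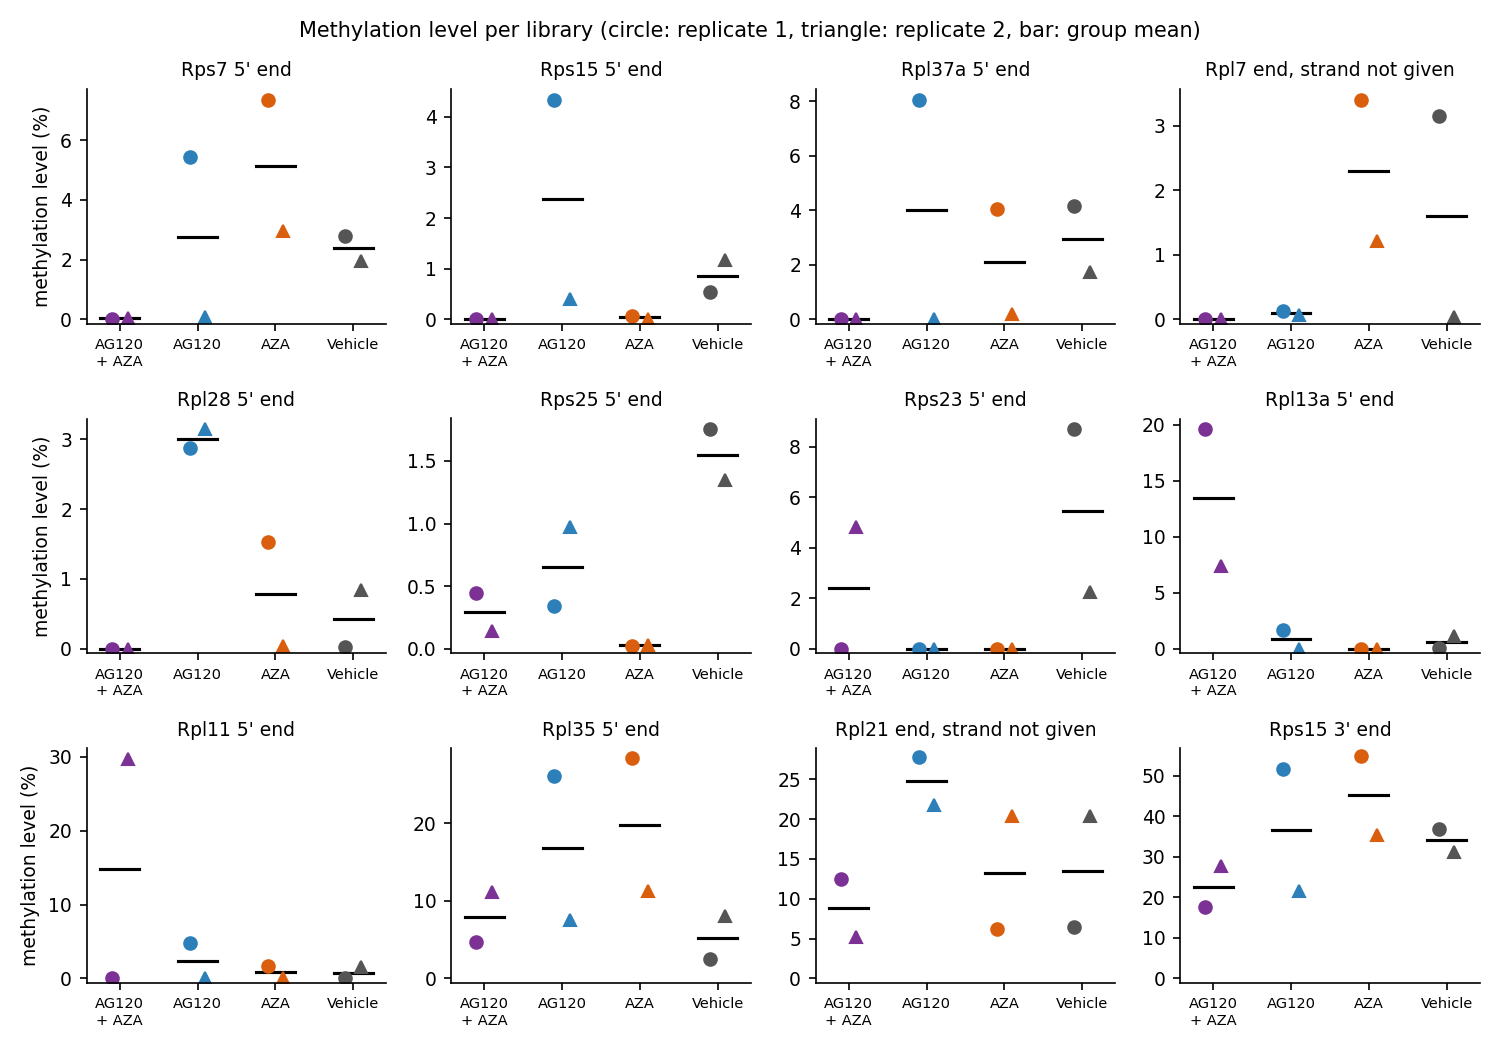
Methylation level (%) of 12 named gene ends in each library (circle, replicate 1; triangle, replicate 2) with the mean of each group as a bar, on an axis of its own for each end. Rps7, the Rps15 5′ end, Rpl37a, Rpl7 and Rpl28 are at or near 0 in both AG120 + AZA libraries, and Rpl13a is highest there, while no end passed the adjusted threshold of the quasi-likelihood test.

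Averaged over the other drug, no ribosomal protein end passed the quasi-likelihood test or limma for either factor. With AG120 against without it, 0 of 62 ends passed in either (0% of all ends in each) and 0 in the likelihood ratio test (1.79%), and 2 had an unadjusted quasi-likelihood p under 0.05, against 4.78% of all ends, with 3 in limma (6.03%) and 6 in the likelihood ratio test (12.9%). With AZA against without it, 0 passed (0% in each), 2 had an unadjusted p under 0.05 (3.25%), with 2 in limma (5.21%) and 4 in the likelihood ratio test (10.3%). The likelihood ratio test called 1, the Rps15 5′ end, by −1.59 points (adjusted p = 0.0294, against an adjusted p of 1 in the quasi-likelihood test; 1.01% of all ends were called). For the interaction, the change with both drugs beyond the sum of the single changes, 0 passed (0% in each), 3 had an unadjusted p under 0.05 (2.65%), with 3 in limma (5%) and 9 in the likelihood ratio test (9.32%). The likelihood ratio test called 1, Rps23 (adjusted p = 0.03; 0.475% of all ends). Rps23 had the interaction estimate 7.89 points, Rpl28 −3.36 points and Rpl10a −4.99 points, each with an adjusted p of 1.

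The 3′ end of Rps15 was the 1 end with a mean of at least 20%. Its window (chr10:80293614-80295114) averaged 34.6% and read 17.6 and 27.7% in AG120 + AZA, 51.7 and 21.6% in AG120, 55.0 and 35.4% in AZA and 36.9 and 31.1% in Vehicle. AG120 + AZA overlapped AG120 and lay under AZA and Vehicle, and AG120 alone spanned almost the whole range. The group means were 22.6% ± 7.19 in AG120 + AZA, 36.7% ± 21.3 in AG120, 45.2% ± 13.8 in AZA and 34% ± 4.08 in Vehicle (SD, n = 2 each). The other 3′ ends were low: Rps18 averaged 1.55% and Rpl41 1.86%, against a median of 31.5% over 932 3′ ends. The window of Rpl41 also holds Zc3h10, and that of Rps18 holds B3galt4. The 5′ end of Rps15, described above, averaged 0.815%.

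Below 20%, ends with wide ranges over the libraries were those of Rps15a, Rpl11, Rpl35 and Rpl21. Rps15a read 33.3 and 1.02% in AG120 + AZA, 0 and 7.85% in AG120, 0 and 0.325% in AZA and 0 and 0.679% in Vehicle. The high library had 81 reads, and all 27 methylated ones fell on a position 174 bp inside the gene, where 3 other libraries with at least 10 reads had 0. Rpl11, which with Rpl5 and the 5S rRNA binds Mdm2 and so restrains its action on p53, read 0 and 29.7% in AG120 + AZA, 4.84 and 0% in AG120, 1.71 and 0% in AZA and 0 and 1.52% in Vehicle. Its high library had 148 counts summed over 42 positions, of which 44 were methylated, at 8 positions. The 95% Wilson interval, 23 to 37.5%, takes each count as independent and is too narrow where 1 read covers several positions. Rps15a and Rpl11 were each high in 1 AG120 + AZA library and near 1% or at 0 in the other.

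At Rpl35 and Rpl21, both of the large subunit, the highest library had its methylated reads far outside the gene end. Rpl35 (chr2:39004631-39006131) read 4.65 and 11.2% in AG120 + AZA, 26.1 and 7.47% in AG120, 28.4 and 11.2% in AZA and 2.45 and 8.02% in Vehicle. Rpl21 (chr5:146831890-146833390) read 12.5 and 5.15% in AG120 + AZA, 27.8 and 21.8% in AG120, 6.14 and 20.4% in AZA and 6.51 and 20.4% in Vehicle. At Rpl21 both AG120 libraries were above all others, and AG120 + AZA overlapped AZA and Vehicle. In that library, AZA replicate 1 for Rpl35 and AG120 replicate 1 for Rpl21, 100% of the methylated reads lay over 500 bp outside the gene end. This did not hold in every library of Rpl35, whose promoter, given above, read 24% in AG120 + AZA replicate 2 and 3.29 and 3.55% in Vehicle. At Rpl21, the position with the most methylated reads in AG120 replicate 1 lay 746 bp outside. It was 99.7 to 100% methylated in the 4 other libraries with at least 10 reads there. The part that the share of reads at such positions has in the window levels of Rpl21 was not tested.

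Across all ribosomal protein windows, high methylation at a position was mostly seen in 1 library. The windows held 6573 positions, of which 416 were read in all 8 libraries and 117 had at least 10 reads in all 8. At positions with at least 10 reads in a library, 94.4 to 96.8% had no methylated read. There were 237 positions with a level of at least 50% in some library, and 201 of these in 1 library only, of which 173 had at least 10 reads in another library. Only 18 were at or above 50% in every library that read them at least 10 times, with 2 libraries or more, among them 5 at the Rps15 3′ end, 7 at Rpl21 and 2 at Rplp0. The 5 at Rps15 lay 78 to 135 bp inside the gene, and the other 13 lay 745 to 990 bp outside.

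The highest library of an end tended to take its methylated reads from a single CpG. At 47 of 62 ends (75.8%) at least 50% of its methylated reads fell on 1 position, as at 60.6% of all 11374 ends with a methylated read and 64.0% of 5′ ends. Where that position had at least 10 reads in another library, it was at 0 in every such library at 34 of 59 ends (57.6%), against 49.2% of all ends. These libraries were picked as the highest, so the values describe them and test nothing. The highest library was an AZA library at 26 of the 62 ends, with 13 in each replicate, and AG120 + AZA supplied 6 and 6, AG120 7 and 6, and Vehicle 7 and 4. This tally was not made over all gene ends, so it cannot be called particular to these genes.

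At the same CpGs in every library the groups were not ordered. The 117 positions with at least 10 reads in all 8 libraries averaged 2.63 and 0.699% in AG120 + AZA, 0.304 and 1.43% in AG120, 0.279 and 2.45% in AZA and 0.266 and 1.55% in Vehicle. Replicates of a group differed by more than the groups' averages did, and 107 to 116 of the 117 positions had no methylated read in a library.

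Members with a known part in disease or signalling had low mean levels. Of 14 such genes, 12 had a kept end, and all 12 averaged under 5% (highest Rpl11, 4.72%), with 0 ends called by the quasi-likelihood test. A library over 10% was found at 2 of them, Rpl11 (above) and Rpl5. Rpl5, the partner of Rpl11, read 0.216 and 2.45% in AG120 + AZA, 3.33 and 3.59% in AG120, 14.0 and 6.68% in AZA and 1.47 and 3.64% in Vehicle. Both AZA libraries of Rpl5 were above all others. In AZA replicate 1, 24.0% of its methylated reads came from a position 489 bp outside the gene, with 244 of 244 reads methylated. No other library had at least 10 reads at that position. Rps19, the gene most often mutated in Diamond-Blackfan anaemia, read 0.447 and 6.99% in AG120 + AZA, 0.176 and 0% in AG120, 0.0265 and 1.78% in AZA and 0.191 and 0.062% in Vehicle. Rps10, Rps26 and Rpl35a, also Diamond-Blackfan genes, averaged 2.58, 0.804 and 0.865%. Rps14, whose loss in people contributes to the anaemia of the 5q- syndrome, read 0.407 and 8.63% in AG120 + AZA, 0.991 and 0.0778% in AG120, 1.6 and 1.12% in AZA and 0.181 and 0.553% in Vehicle. At Rps19 and Rps14 the highest library was AG120 + AZA replicate 2, and the other AG120 + AZA library was under 0.5%. Rps6, the phosphorylation target of the S6 kinases, read 0.0717 and 2.36% in AG120 + AZA, 1.78 and 0.473% in AG120, 2.18 and 0.282% in AZA and 2.09 and 3.12% in Vehicle. Rplp0, of the ribosomal stalk, averaged 1.1%, and Rps27a, which is made as a fusion with ubiquitin, 0.0748%.

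Most other lists of the translation machinery also had low levels, and 0 of their ends passed the quasi-likelihood test in any of the 8 contrasts. Ribosome biogenesis factors kept 72 ends with a median mean level of 1.13%, translation factors 55 ends with 1.66%, and mitochondrial ribosomal protein genes 64 ends with 1.49%. The 12 ends of ribosomal components outside the symbol rule, some of them X-linked, had a median of 15.9%. In AG120 + AZA against Vehicle, an unadjusted p under 0.05 was found at 4 of 72, 4 of 55, 0 of 64 and 0 of 12 ends, against 4.83% of all ends. Nop2, an rRNA methyltransferase, read 0.0677 and 0% in AG120 + AZA and 3.1 and 4.56% in Vehicle, a difference of −3.8 points (edgeR quasi-likelihood test, adjusted p = 0.981). Ltv1, an assembly factor of the small subunit, read 2.18 and 5.06% in AG120 + AZA and 0.177 and 0.0139% in Vehicle (3.53 points). Eif2s1, the alpha subunit of initiation factor eIF2, read 0.0234 and 0.0862% in AG120 + AZA and 2.85 and 2.39% in Vehicle (−2.56 points). Eif1a had 0 methylated reads in both AG120 + AZA libraries and 1.56 and 0.944% in Vehicle (−1.25 points), and the adjusted p was 0.981 for Ltv1, Eif2s1 and Eif1a. Rpl36al, of the list outside the symbol rule, differed by −0.9 points (adjusted p = 0.989). The 3′ end of Mrpl14 was almost fully methylated, at 100 and 100% in AG120 + AZA and 98.5 and 84.3% in Vehicle, and Mrps18b differed by −2.74 points (adjusted p = 0.981 for both).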

How the data were processed

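RRBS was read in 8 libraries (4 groups, 2 each). The deposited table holds raw counts of methylated and unmethylated reads per CpG cytosine, per the file headers, at 4006353 positions, with no normalization. Per the submitters' processing notes, the build was mm10, and the tools named include Bismark 0.22.3, edgeR 3.32 under R 4.0.2, Trim Galore 0.4.4, bcl2fastq 2.17.1.14 and SAMtools 1.4.1. Deduplication is not given in the sources used here. There were 0 unused columns of per-sample values.

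Counts were summed per gene-end window (at least 3 positions, at least 20 reads in every library) over all protein-coding genes on the autosomes and X, and fitted in 1 model of 8 libraries, with library terms and a methylation term per group (edgeR 4.0.16, R 4.3.3, robust quasi-likelihood F-test, two-sided, Benjamini-Hochberg over all ends, threshold 0.05). The likelihood ratio test and limma 3.58.1 (log2 ratios, pseudocount 2) were alternatives. The fit was tested on simulated data, with large changes planted at ends of intermediate level. That simulation does not cover ends near 0, as most of those described here are. Strand came from the RefSeq promoter table. Named ends were the 3 with the smallest p per contrast, ends averaging at least 20%, the 5 widest ranges below that, 14 genes of known role, and 2 ends per other list. Some ends that this rule names are not reported here. Members, lists and tests were chosen with earlier results of these data known. A difference is in percentage points of group mean levels. Same-numbered libraries did not deviate together (r −0.0073 to 0.0052), so they were not paired.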

Additional observations from a re-analysis of the deposited data

How the results depend on the processing

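Calls of ribosomal protein ends were 0 in 124 of 128 combinations of contrast and setting, and the likelihood ratio test gave 1 in each of the other 4. Same-numbered libraries were not shown to pair, and with the replicate block the number of called ends stayed at 0 in every contrast. At positions read in all 8 libraries (30 ends tested), the median difference was −0.378 points in AG120 against Vehicle, −0.0346 in AZA against Vehicle, −0.206 in AG120 + AZA against Vehicle, −0.0058 in AG120 + AZA against AZA and 0.0395 in AG120 + AZA against AG120. Over all positions (62 ends), leaving out a library gave medians, in the same order, from −0.518 to 0.0472, from −0.223 to 0.583, from −0.703 to −0.186, from −0.835 to 0.0108 and from −0.267 to 0.00963 points. The group means of the median level at positions read in all libraries were 0% in AG120 + AZA, AG120 and AZA and 0.126% in Vehicle. Unweighted means over positions with at least 5 reads gave 0.0256% in AG120 + AZA and 0.383% in AG120. With 500 bp outside they were 0.0265% in AG120 + AZA, 0.141% in AG120 and 0.766% in Vehicle, and with 100 reads 0.402% in AG120. Rps25 with AZA against without reversed to 0.729 points at positions read in all libraries. The causes were not tested. The levels of named ends under other filters were added after seeing the data, and 114 of 121 moved by less than the spread. Depth limits what a level of 0 can show, at best to the limits given beside those levels, which take every count as independent.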
